A study of Mus musculus with 17 samples.

Results

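B cells made up 2714 of the 18546 barcodes kept from 5 single-cell RNA libraries of leukocytes sorted from mouse pancreatic tumours. A barcode was kept with at least 500 detected genes and at most 10% mitochondrial UMIs (unique molecular identifiers, the counted RNA molecules). It was taken as a B cell when it held at least 2 UMIs of Cd79a, at least 1 of Ms4a1, none of Cd3d, Cd3e or Cd3g, fewer than 10 of C1qa, C1qb and C1qc together and fewer than 20 of Jchain. These genes mark, in that order, the signalling chain of the B-cell receptor, the B-cell surface protein CD20, T cells, macrophages and plasma cells. The members were thus chosen by the UMI counts of these genes, whose levels are given as description. All 4 steps after the Cd79a step removed cells: of 3496 kept barcodes with 2 or more Cd79a UMIs, 3101 also had Ms4a1, 2835 of those lacked Cd3 UMIs, 2738 stayed under the C1q limit and 2714 under the Jchain limit. At the edge of the gate, 37 members held 2 Cd79a UMIs and 40 barcodes that met the other conditions held 1. Likewise 223 members held 1 Ms4a1 UMI and 169 barcodes that met the other conditions held none.

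Tumours were grown in the pancreas and CD45+ leukocytes were taken 3 weeks after implantation, without treatment. The study asks what PD-L1, the ligand encoded by Cd274, does on T cells, and each genotype had 1 library. The genotypes were PDL1 floxed/floxed-CD4Cre (flfl_CD4Cre), PDL1 floxed/WT-CD4Cre (flWT_CD4Cre), PDL1 floxed/floxed without Cre (flfl), CD4Cre with no floxed allele named (CD4Cre) and wild type (WT). Cre driven by Cd4 regulatory sequence acts in T cells, so the floxed allele is not aimed at B cells. Mouse age, strain, sex and tumour line, and whether mice were pooled, are not given in the sources used here. Because each genotype had 1 library, no difference between genotypes was tested. Their B cells are set side by side with intervals that cover counting error only. The labels call the samples tumour-infiltrating T cells, while a T-cell gate held 1097 of the 18546 kept barcodes. Files of flfl_CD4Cre, flWT_CD4Cre and CD4Cre list 31053 genes and those of flfl and WT 28692, and genotype and gene list cannot be told apart between these 2 sets. The labels were used where the names of the deposited files for flWT_CD4Cre and WT say otherwise.

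B cells recognise antigen through a membrane immunoglobulin joined to CD79A and CD79B, and PAX5 and EBF1 hold them in the lineage. Mature follicular B cells carry IgM together with IgD and CD23 (Fcer2a), and recirculate through lymphoid organs. Marginal zone B cells carry high CD21 (Cr2) and CD1d and little IgD or CD23. Germinal centre B cells divide, mutate their receptor genes and switch from IgM to IgG or IgA. In tumours B cells can sit in lymphoid aggregates, present antigen on MHC class II and make antibody after becoming plasma cells.

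Upstream sequence is shown for 3 genes on which the description turns: Cd79a, which set the gate, Cr2, which was among the genes most restricted to these cells, and Fcer2a, which separated IgD-negative from IgD-positive cells. The windows are the RefSeq promoters of build GRCm38.p6, printed 5′ to 3′ along the gene up to the first base of the gene in GENCODE M21: chr7:24897247-24897380 on the plus strand, chr1:195176720-195176969 on the minus strand and chr8:3694176-3694424 on the minus strand. Capitals mark an E-box of the kind bound by E proteins (CAGGTG, or CACCTG when read on the opposite strand) and an Ets core (GGAAGT, or ACTTCC), and no match overlapped another. The Cd79a window was cut shorter than the other 2 because the annotated gene begins earlier. The part cut off held an Ets core, 54 bases before the RefSeq start. Fcer2a had 3 RefSeq promoters, of which the first is shown, and the second held 2 E-boxes.
Cd79a: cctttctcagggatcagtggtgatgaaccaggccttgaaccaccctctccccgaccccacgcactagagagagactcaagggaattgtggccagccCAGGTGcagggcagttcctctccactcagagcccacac
Cr2: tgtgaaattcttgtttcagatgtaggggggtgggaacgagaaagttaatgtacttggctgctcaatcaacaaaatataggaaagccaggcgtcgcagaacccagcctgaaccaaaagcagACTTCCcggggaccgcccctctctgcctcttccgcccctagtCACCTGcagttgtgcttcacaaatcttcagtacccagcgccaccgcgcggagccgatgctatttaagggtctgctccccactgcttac
Fcer2a: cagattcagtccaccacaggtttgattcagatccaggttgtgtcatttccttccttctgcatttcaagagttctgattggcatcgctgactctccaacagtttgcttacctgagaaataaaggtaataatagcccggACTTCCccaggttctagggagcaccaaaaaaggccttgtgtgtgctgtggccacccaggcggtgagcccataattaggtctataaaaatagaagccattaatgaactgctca
The E-box letters occurred in 17.2% and the Ets letters in 19.7% of 32851 RefSeq promoters, read over the 250 bases before the start. The letters CCCNNGGG, a site of EBF1, occurred in 11.8% of promoters and the octamer ATGCAAAT in 1.60%, and neither was in these 3 windows on either strand. These matches describe letters only. Of 11 genes looked up, 7 were in the promoter table.

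Cd274, the floxed gene (GRCm38 chromosome 19, 29367455 to 29388095, plus strand), stood in B cells at 58.3 CPM in flfl_CD4Cre, 66.4 in flWT_CD4Cre, 43.3 in flfl, 47 in CD4Cre and 17.8 in WT, summed UMIs scaled to counts per 1e6 (CPM), with Poisson 95% intervals of 45.9 to 72.9 in flfl_CD4Cre, 52.8 to 82.4 in flWT_CD4Cre and 43.3 to 50.9 in CD4Cre. The intervals of flfl_CD4Cre and CD4Cre overlapped, and no B-cell loss of Cd274 was detectable at this depth. The T-cell gate gave 62.9 CPM in flfl_CD4Cre, 49.7 in flWT_CD4Cre, 15.2 in flfl, 64.8 in CD4Cre and 10.02 in WT and the macrophage gate 135 CPM in flfl_CD4Cre, 185 in flWT_CD4Cre, 41.8 in flfl, 215 in CD4Cre and 28.9 in WT. Macrophages were above B cells in 4 of 5 libraries, with flfl as the exception, at 43.3 CPM in B cells and 41.8 CPM in macrophages. The libraries count one end of a transcript, and whether that end lies in the deleted part is not given in the sources used here, so the value does not check the deletion.

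The CD4Cre library was rich in B cells. There were 187 of 3952 kept barcodes in flfl_CD4Cre (4.73%, 95% interval 4.09 to 5.44), 120 of 3788 kept barcodes in flWT_CD4Cre (3.17%, 95% interval 2.63 to 3.78) and 116 of 2861 kept barcodes in flfl (4.05%, 95% interval 3.36 to 4.84). There were 2124 of 5077 kept barcodes in CD4Cre (41.8%, 95% interval 40.5 to 43.2) and 167 of 2868 kept barcodes in WT (5.82%, 95% interval 4.99 to 6.74). The CD4Cre interval lay above the other 4, which spanned 2.63% to 6.74%. The Cd3, C1q and Jchain limits removed unequal parts of the barcodes that had passed the Cd79a and Ms4a1 steps. They left 116 of 214 in flfl and 167 of 314 in WT. In flfl_CD4Cre they left 187 of 196, in flWT_CD4Cre 120 of 130 and in CD4Cre 2124 of 2247. No alternative varied these limits. There were 2.83 B cells per T cell in flfl_CD4Cre, 1.52 in flWT_CD4Cre, 0.216 in flfl, 22.1 in CD4Cre and 0.522 in WT. Plasma cells were few in every library, with 27, 3, 18, 35 and 35 barcodes of flfl_CD4Cre, flWT_CD4Cre, flfl, CD4Cre and WT. The 3 libraries with 31053 genes shared 1414 to 1856 barcodes pairwise, while 4, 3, 0, 45 and 2 B cells of flfl_CD4Cre, flWT_CD4Cre, flfl, CD4Cre and WT carried a barcode found elsewhere. Without the shared barcodes the share was 7.57% in flfl_CD4Cre, 5.04% in flWT_CD4Cre, 4.07% in flfl, 54.0% in CD4Cre and 5.78% in WT.

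**Figure D1:**
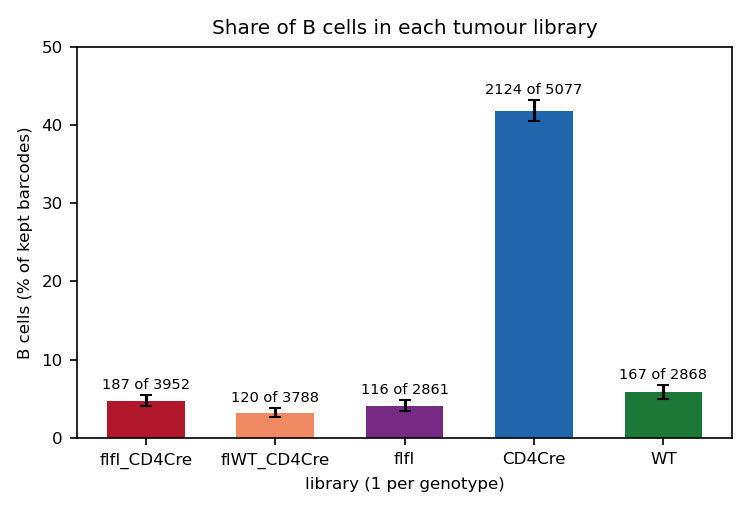
Share of kept barcodes that were B cells (vertical axis, percent) in each library (horizontal axis), with exact binomial 95% intervals and the counts above the bars. CD4Cre stands at 41.8% and the other 4 libraries between 3.17% and 5.82%.

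B-cell markers were present in every library. Cd79a, Ms4a1, Cd79b, Pax5, Ebf1 and Ighd together summed to 5490 to 6407 CPM in B cells and 19.96 to 396 CPM in the other kept barcodes. Cd79a itself stood at 1707 CPM in flfl_CD4Cre, 1880 in flWT_CD4Cre, 1909 in flfl, 1886 in CD4Cre and 1920 in WT. Ebf1, a factor that specifies the lineage, reached 858 CPM in flfl_CD4Cre, 823 in flWT_CD4Cre, 989 in flfl, 1163 in CD4Cre and 877 in WT. Pax5, which holds cells in the lineage, stood at 493 CPM in flfl_CD4Cre, 389.5 in flWT_CD4Cre, 113 in flfl, 403 in CD4Cre and 112 in WT. The levels of Cd79a and Ebf1 lay within 1.5-fold across libraries, while Pax5 was lower in flfl and WT than in the other 3. Median depth per B cell was 5503 UMIs in flfl_CD4Cre, 8830.5 in flWT_CD4Cre, 5387.5 in flfl, 4908 in CD4Cre and 6303 in WT.

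Genes of other cell types were low but not absent, and they differed between libraries. Macrophage markers (11 genes) summed to 754 CPM in flfl_CD4Cre, 1096 in flWT_CD4Cre, 5210 in flfl, 1059 in CD4Cre and 3634 in WT in B cells, with none of the 11 at 0 in any library, and to 9796 to 49720 CPM in the other barcodes. Neutrophil markers (6 genes) summed to 106 CPM in flfl_CD4Cre, 219 in flWT_CD4Cre, 4802 in flfl, 658 in CD4Cre and 2900 in WT. T-cell markers (11 genes) summed to 15.3 to 106 CPM with Cd3d, Cd3e and Cd3g at 0 by the gate, natural killer markers (6 genes) to 0 to 109 CPM, plasma-cell markers (5 genes) to 53.4 to 82.8 CPM and epithelial markers (5 genes) to 55.1 to 245 CPM. Plasmacytoid dendritic cell markers (5 genes) summed to 14.6 to 64.3 CPM, conventional dendritic cell markers (6 genes) to 6.46 to 110.2 CPM, acinar markers (5 genes) to 1.62 to 69.5 CPM and erythroid markers (5 genes) to 2.83 to 106 CPM. The macrophage and neutrophil sums were highest in flfl and WT. At least 1 C1q UMI was held by 53.5% of members in flfl_CD4Cre, 54.2% in flWT_CD4Cre, 91.4% in flfl, 37.9% in CD4Cre and 98.2% in WT.

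Ranked by how much of a gene's RNA lay within B cells, the genes most like Ms4a1 included Cr2 and Pax5. B cells held 7.34% of all UMIs, and among 13019 genes with at least 200 UMIs the largest shares were 90.6% for the gene model Gm2447, 88.7% for the kinase gene Cdkl1, 87.4% for Cr2, 86.2% for Pax5 and 86.0% for the calcium channel gene Cacna1i. Ms4a1 had 85.4%. These shares pool the libraries, and CD4Cre held 2124 of the 2714 B cells. Within single libraries Cr2 lay between 51.2% (flfl) and 95.6% (flfl_CD4Cre), Pax5 between 46% (flfl) and 94.3% (flfl_CD4Cre) and Ms4a1 between 50.3% (flfl) and 93% (flfl_CD4Cre). Barcodes with Cd79a and Ms4a1 that failed the Cd3, C1q or Jchain limits count outside B cells here. In flfl these limits left 116 of 214 such barcodes. Cdkl1 had 0% in flfl and WT, and in WT Gm2447 had 37.5% and Cacna1i 13.3%. Cr2 encodes CD21, the complement receptor that lowers the threshold of the B-cell receptor, and its level was 315 CPM in flfl_CD4Cre, 274 in flWT_CD4Cre, 165 in flfl, 322 in CD4Cre and 284 in WT. It was lowest in flfl, and the other 4 libraries lay between 274 and 322 CPM.

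**Figure D2:**
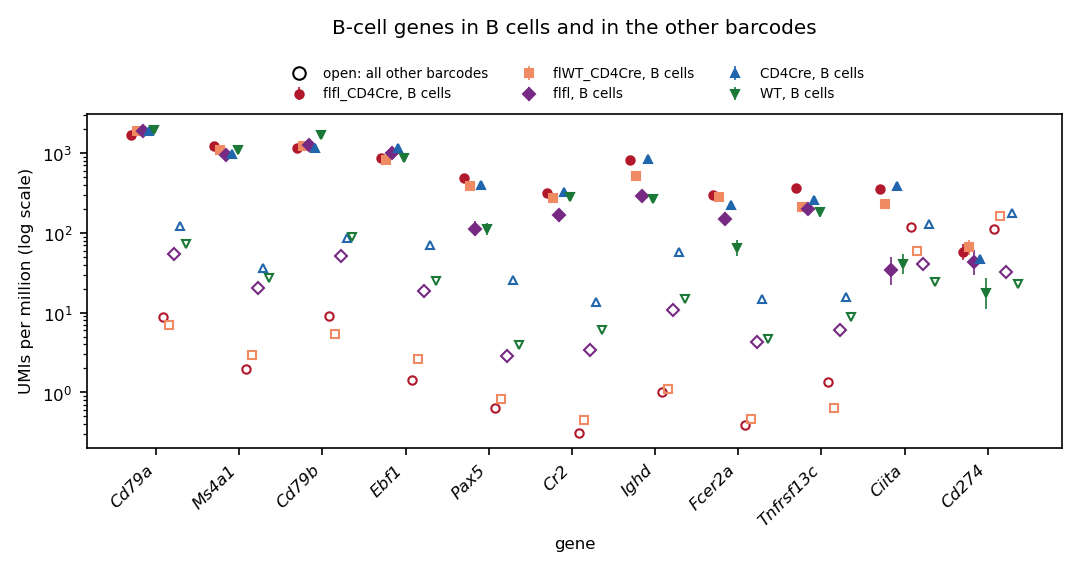
Levels of 11 genes as summed UMIs in CPM (vertical axis, log scale) in B cells (filled, with Poisson 95% intervals) and in all other kept barcodes (open), by library. Lineage genes lie above the other barcodes in every library, Pax5 and Ciita are lower in flfl and WT, and Cd274 is below the other barcodes in every library but flfl.

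Signalling and antigen-presentation genes were detected in B cells of all 5 libraries. Blk, a Src-family kinase of B cells, stood at 130.3 CPM in flfl_CD4Cre, 127 in flWT_CD4Cre, 164 in flfl, 125 in CD4Cre and 226 in WT, and Cd22, an inhibitory lectin of the receptor, at 485 CPM in flfl_CD4Cre, 372 in flWT_CD4Cre, 117 in flfl, 477 in CD4Cre and 132 in WT. Cd22 was lower in flfl and WT, and Blk was not. The BAFF receptor gene Tnfrsf13c, needed for survival of mature B cells, stood at 363 CPM in flfl_CD4Cre, 211 in flWT_CD4Cre, 199 in flfl, 259 in CD4Cre and 182 in WT. Cd74, the MHC class II invariant chain, stood at 8517 CPM in flfl_CD4Cre, 9196 in flWT_CD4Cre, 22435 in flfl, 9144 in CD4Cre and 17867 in WT and H2-Ab1, a class II chain, at 1857 CPM in flfl_CD4Cre, 2316 in flWT_CD4Cre, 5544 in flfl, 2008 in CD4Cre and 4332 in WT. Both were higher in flfl and WT, and Ciita, the class II transactivator, went the opposite way with 357 CPM in flfl_CD4Cre, 230.0 in flWT_CD4Cre, 34.1 in flfl, 383 in CD4Cre and 41.2 in WT. In the other barcodes H2-Ab1 and Cd74 were also higher in flfl and WT, at 9154 and 8451 CPM for H2-Ab1, against 1462 to 2138 CPM in the 3 libraries with the longer gene list. Over all 1954 genes that reached 100 CPM in B cells of some library, 448 (22.9%) were at least 2-fold lower in both flfl and WT than in each of the other 3 libraries, and 313 of these were so in the other barcodes as well. A further 83 genes (4.25%) were at least 2-fold higher in flfl and WT. Of the 18 transcription factors of the list at that level, 8 were among the lower genes, so levels of these factors are compared below only within a set.

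Between flfl_CD4Cre and CD4Cre, the pair that differs by the floxed allele, few B-cell genes were called. A gene was called when its higher level reached 100 CPM, the ratio was at least 2 and the Poisson 95% intervals did not overlap. Of 1521 genes, 13 were called (0.855%), 10 higher (0.657%) and 3 lower (0.197%) in flfl_CD4Cre, and the median log2 ratio was 0.03. None of the 14 receptor-signalling genes, 11 MHC class II genes, 8 follicular genes or 17 transcription factors that reached the level was called, with median log2 ratios of -0.02, -0.10, -0.03 and 0.09. At the share of 0.855% over all genes, lists of this size would hold few calls or none. In the activation list 1 of 5 was called, the chemokine gene Ccl4 at 104 CPM in flfl_CD4Cre against 42.8 CPM in CD4Cre, and the single gene of the B-1 list at that level, Ahnak, was at 225 CPM in flfl_CD4Cre against 93.2 CPM in CD4Cre.

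The called genes of this pair that also lay outside the other 4 libraries were few and were mostly genes of other cells. Fn1, which encodes fibronectin, stood at 223 CPM in flfl_CD4Cre, against 85.3 CPM in CD4Cre. A single cell held 62.9% of its flfl_CD4Cre UMIs, and with the cell richest in each gene left out the log2 ratio was 0.15 in place of 1.39. Cd44, a hyaluronan receptor raised on antigen-experienced cells, stood at 138 CPM in flfl_CD4Cre, against 62.1 CPM in CD4Cre, and without the richest cell its log2 ratio was 0.86 in place of 1.15 and it was no longer called. Lower in flfl_CD4Cre were the neutrophil genes S100a8 (36.8 CPM in flfl_CD4Cre against 301 CPM in CD4Cre) and S100a9 (46 CPM in flfl_CD4Cre against 315 CPM in CD4Cre) and the myeloid gene Cst3 (225 CPM in flfl_CD4Cre against 453 CPM in CD4Cre). In CD4Cre 1 cell held 64.7% of the S100a8 UMIs of B cells. With the cell richest in each gene left out the log2 ratios were -3.31 for S100a8, -2.90 for S100a9 and -1.09 for Cst3. With the highest doublet scores removed they were -4.76, -4.31 and -0.40. All 5 genes were higher in the other barcodes than in B cells of both libraries, for instance Fn1 at 2220 CPM in flfl_CD4Cre and 1114 CPM in CD4Cre. Among genes at least as high in B cells as in the other barcodes of the higher library, 1 of 1018 was called. Without the shared barcodes 6 genes were called.

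Between flWT_CD4Cre and CD4Cre, some immediate-early genes were higher and 8 genes that B cells express above other cells were lower in flWT_CD4Cre. Of 1548 genes 62 were called (4.01%), 49 higher (3.17%) and 13 lower (0.84%). Of 9 immediate-early and stress genes at the level, 4 were called higher, with a median log2 ratio of 0.85 over the 9 against -0.02 over all genes. Fos, an AP-1 subunit, stood at 281 CPM in flWT_CD4Cre against 62.3 CPM in CD4Cre, Fosb at 133 CPM in flWT_CD4Cre against 61.8 CPM in CD4Cre, Junb at 600.1 CPM in flWT_CD4Cre against 190.2 CPM in CD4Cre and Ier2 at 153 CPM in flWT_CD4Cre against 69 CPM in CD4Cre. The other barcodes differed the same way, with Fos at 248 CPM in flWT_CD4Cre and 132 CPM in CD4Cre, and the part of cell handling in this was not tested. No member of the receptor-signalling list (14 genes), the follicular list (8 genes) or the class II list (11 genes) was called. At the share of 4.01% over all genes, lists of this size would hold few calls or none.

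Lower in flWT_CD4Cre were genes that B cells express above other cells. Vpreb3, a surrogate light chain relative kept in mature B cells, stood at 142 CPM in flWT_CD4Cre, against 312 CPM in CD4Cre. Klhl6, an adaptor of receptor signalling, stood at 42.9 CPM in flWT_CD4Cre against 131 CPM in CD4Cre, and the chromatin organiser Satb1 at 90.7 CPM in flWT_CD4Cre against 183 CPM in CD4Cre. Chchd10 (91.5 CPM in flWT_CD4Cre against 229.8 CPM in CD4Cre), Mylip (73.7 CPM in flWT_CD4Cre against 168 CPM in CD4Cre), Evl (69.6 CPM in flWT_CD4Cre against 145 CPM in CD4Cre), Cnot3 (59.9 CPM in flWT_CD4Cre against 124 CPM in CD4Cre) and Cerk (68 CPM in flWT_CD4Cre against 137 CPM in CD4Cre) were also lower. These 8 genes kept log2 ratios below -1 when the cell richest in each gene was left out. Igha, the IgA heavy chain, was lower as well at 13.8 CPM in flWT_CD4Cre against 273 CPM in CD4Cre, and the other barcodes had 9.05 CPM in flWT_CD4Cre against 1822 CPM in CD4Cre. The neutrophil genes S100a8 and S100a9 were at 102 CPM in flWT_CD4Cre against 301 CPM in CD4Cre and 91.5 CPM in flWT_CD4Cre against 315 CPM in CD4Cre, and 1 cell held 93.7% of the flWT_CD4Cre S100a8 UMIs. In place of log2 ratios of -1.56 for S100a8 and -1.78 for S100a9, the values were 0.02 and -0.33 without the shared barcodes and 0.20 and -0.62 in thinned cells. With the cell richest in each gene left out they were -4.03 and -6.21, and with the highest doublet scores removed -5.88 and -7.30.

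The largest ratios upward in flWT_CD4Cre came from genes of tumour, stromal or myeloid cells. Fbln2, an extracellular matrix gene, stood at 201 CPM in flWT_CD4Cre against 19.2 CPM in CD4Cre, but 1 cell held 87.5% of its UMIs. Lmna, Cdkn2a, Tm4sf1, Krt8, Cd9, Gbp2, Inhba, Ecm1, Fabp5 and Ahnak had log2 ratios between 2.04 and 3.11, and in flWT_CD4Cre 1 cell held between 15.9% (Ahnak) and 74.4% (Inhba) of their UMIs. With the cell richest in each gene left out, the log2 ratio was 0.65 for Fbln2, 0.35 for Inhba, 0.66 for Ecm1 and 0.94 for Fabp5, and these 4 were no longer called. The other 7 kept log2 ratios from 1.12 (Gbp2) to 2.56 (Tm4sf1). Of these only Ahnak still reached the CPM level that a call needs. Lmna, Cdkn2a, Tm4sf1, Krt8, Cd9 and Gbp2 fell below that level and were no longer called either. With the highest doublet scores removed Fabp5 stood at -0.40. All 11 of these genes were higher in the other barcodes than in B cells in both libraries. Epithelial markers summed to 245 CPM in flWT_CD4Cre B cells and 61.5 CPM in CD4Cre B cells, with Cldn4 at 0 in both, and their part in these calls was not tested. With the richest cell left out 39 genes were called, and without the shared barcodes 37. In cells thinned to 1500 UMIs 66 were called, 24 of them among the 62. Among genes at least as high in B cells as in the other barcodes of the higher library, 17 of 967 were called. Were the file names right in place of the labels, 798 of 1677 genes would be called, in a pair of libraries with different gene lists.

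Between flfl and WT, the 2 libraries with the shorter gene list, most immediate-early and activation genes at the level were higher in flfl B cells. Of 1268 genes 107 were called (8.44%), 95 higher (7.49%) and 12 lower (0.946%). Of 10 activation genes at the level 9 were called higher, with a median log2 ratio of 1.52, and of 10 immediate-early and stress genes 9, with a median of 1.83, against 0.02 over all genes. Nr4a1, which follows receptor signalling in B cells, stood at 316 CPM in flfl, against 50.9 CPM in WT. Cd69, an early activation antigen, stood at 190.3 CPM in flfl against 48.5 CPM in WT, Cd83 at 339.8 CPM in flfl against 82.4 CPM in WT, Myc at 163 CPM in flfl against 58.2 CPM in WT and Egr1 at 248 CPM in flfl against 92.1 CPM in WT. The remaining called activation genes were Ccl4, Nfkbia, Nfkbid and Rel. Dusp1, a phosphatase induced by stress, stood at 455 CPM in flfl against 55.7 CPM in WT, Fos at 777 CPM in flfl against 177 CPM in WT, Atf3 at 129.9 CPM in flfl against 19.4 CPM in WT and Ppp1r15a, a stress-response phosphatase subunit, at 235 CPM in flfl against 42 CPM in WT.

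The same lists were high in the other barcodes of flfl. The 14 immediate-early and stress genes summed to 2172 CPM in flfl_CD4Cre, 4188 in flWT_CD4Cre, 8219 in flfl, 2235 in CD4Cre and 3132 in WT in B cells, and to 2973 CPM in flfl_CD4Cre, 4026 in flWT_CD4Cre, 7690 in flfl, 3100 in CD4Cre and 3728 in WT in the other barcodes. The 16 activation genes summed to 1031 CPM in flfl_CD4Cre, 1379 in flWT_CD4Cre, 3293 in flfl, 1163 in CD4Cre and 1274 in WT in B cells, and to 1129 CPM in flfl_CD4Cre, 1602 in flWT_CD4Cre, 3054 in flfl, 1480 in CD4Cre and 1544 in WT in the other barcodes. B cells and other barcodes of flfl were thus both above those of the other 4 libraries on both lists. Whether the difference arose in the tumour or during dissociation was not tested.

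**Figure D3:**
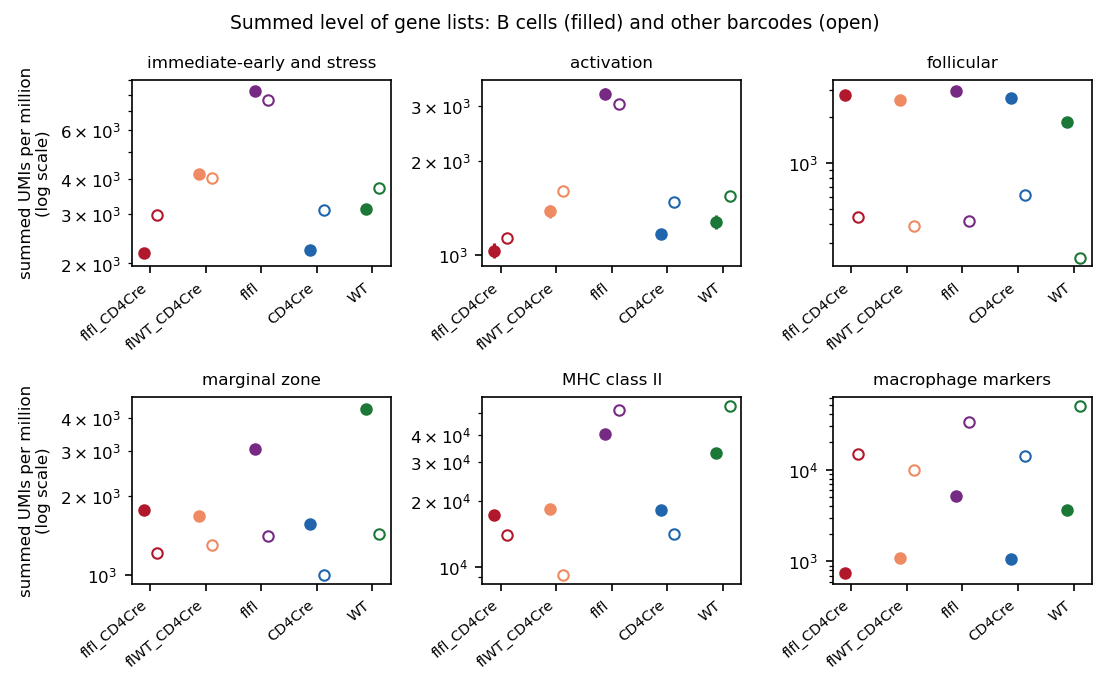
Summed levels of 6 gene lists (vertical axes, CPM, log scale) in B cells (filled, Poisson 95% intervals, often smaller than the symbol) and in the other kept barcodes (open) of each library. The stress and activation sums are highest in flfl in both kinds of barcode, and the marginal zone sum is highest in WT B cells at 4347.

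Of 8 follicular genes at the level 3 were called higher in flfl and none lower, with a median log2 ratio of 0.53. Fcer2a, the low-affinity IgE receptor CD23, stood at 151 CPM in flfl, against 64.6 CPM in WT. Ccr7, which guides cells to lymphoid T zones, stood at 395 CPM in flfl against 99.4 CPM in WT, and Klf2, a factor of quiescence and recirculation, at 1130 CPM in flfl against 359.5 CPM in WT. The other barcodes had more of both in flfl too, with Ccr7 at 94.9 CPM in flfl against 22.3 CPM in WT and Klf2 at 258 CPM in flfl against 139 CPM in WT, while Fcer2a had 4.34 CPM in flfl against 4.65 CPM in WT there. Cxcr4, a receptor for the chemokine CXCL12, was also called, at 112 CPM in flfl against 18.6 CPM in WT. In cells thinned to 1500 UMIs each, Fcer2a was detected in 38.4% of B cells in flfl_CD4Cre, 33.1% in flWT_CD4Cre, 20.7% in flfl, 27.5% in CD4Cre and 6.59% in WT, and in at most 0.560% of T cells. WT was lowest, with an interval of 3.33 to 11.5 that lay below those of the other 4. Unthinned, the shares were 66.3% in flfl_CD4Cre, 67.5% in flWT_CD4Cre, 49.1% in flfl, 54.2% in CD4Cre and 26.3% in WT.

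The 8 marginal zone genes summed to 1773 CPM in flfl_CD4Cre, 1680 in flWT_CD4Cre, 3035 in flfl, 1567 in CD4Cre and 4347 in WT, highest in WT. Of the 5 at the level, 1 was called lower in flfl and none higher, with a median log2 ratio of -0.78. The called gene was Dtx1, a modulator of Notch signalling expressed by marginal zone B cells, at 89.7 CPM in flfl_CD4Cre, 63.2 in flWT_CD4Cre, 102 in flfl, 118 in CD4Cre and 209 in WT. Its log2 ratio was 0.70 when libraries were grouped by file name in place of label. Not called were Mzb1, a chaperone of marginal zone and plasma cells, at 579.9 CPM in flfl against 1052 CPM in WT, and Plac8 at 1863 CPM in flfl against 2418 CPM in WT. Below the level minimum, S1pr3 stood at 9.18 CPM in flfl against 24.2 CPM in WT and Cd1d1 at 42 CPM in flfl against 67.1 CPM in WT. Plasma-cell markers summed to 81.3 CPM in flfl and 81.6 CPM in WT, with Tnfrsf17 at 0 in both. In thinned cells Ighd was detected in 64.3% of B cells in flfl_CD4Cre, 55.9% in flWT_CD4Cre, 37.1% in flfl, 68.4% in CD4Cre and 26.9% in WT, lowest in WT and flfl.

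Further calls between flfl and WT included genes of few cells. Ccl17, a dendritic cell chemokine, stood at 147 CPM in flfl against 2.42 CPM in WT with 82.1% of its flfl UMIs in 1 cell. Ly6c2, S100a4, Tgfbi, Ifitm3, Naaa and Tmem176b, genes high in myeloid cells, were higher by log2 ratios of 2.44 to 3.49, and in both libraries each was above its B-cell level in the other barcodes. Prap1 and Tff3, epithelial genes, had no UMI in flfl B cells and 242 and 338 CPM in WT, at least 61.4-fold and 85.8-fold lower in flfl from a floor of 3 UMIs in the library. A single WT cell held 98.3% of the Prap1 and 99.8% of the Tff3 UMIs, and likewise 88.3% of those of Camp, 87.2% of Ngp, 90.1% of Tff1 and 57.9% of Clu. With the cell richest in each gene left out, the log2 ratio was -2.59 for Camp, -2.53 for Ngp, -0.79 for Tff1 and -0.08 for Clu. The cell-cycle genes Pclaf (45.9 CPM in flfl against 129 CPM in WT) and Stmn1 (93.2 CPM in flfl against 191 CPM in WT), the translation-factor enzyme gene Dph5 (64.3 CPM in flfl against 132 CPM in WT) and Ighg2b (48.5 CPM in flfl against 139 CPM in WT) were lower in flfl. Among genes at least as high in B cells as in the other barcodes of the higher library, 48 of 731 were called. The 48 include Prap1, Tff3 and the neutrophil chemokine gene Cxcl2, so passing this filter does not make a gene one of B cells. By the file names in place of the labels 643 of 1655 genes would be called, again in a pair of libraries with different gene lists.

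Most B cells had mainly IgM and IgD constant UMIs (at least 5, and no fewer than those of IgG, IgA and IgE), in 163 of 187 in flfl_CD4Cre, 113 of 120 in flWT_CD4Cre, 115 of 116 in flfl, 1931 of 2124 in CD4Cre and 159 of 167 in WT. Ighm stood at 3030 CPM in flfl_CD4Cre, 3280 in flWT_CD4Cre, 2583 in flfl, 3256 in CD4Cre and 3166 in WT, and Ighd at 822 CPM in flfl_CD4Cre, 512 in flWT_CD4Cre, 293 in flfl, 836 in CD4Cre and 269 in WT. A cell was counted as switched when its IgG, IgA and IgE constant UMIs reached 5 and exceeded its Ighm and Ighd UMIs. Switched cells numbered 22 of 187 in flfl_CD4Cre, 6 of 120 in flWT_CD4Cre, 0 of 116 in flfl, 176 of 2124 in CD4Cre and 6 of 167 in WT. The shares were 11.8% in flfl_CD4Cre, 5.0% in flWT_CD4Cre, 0% in flfl, 8.29% in CD4Cre and 3.59% in WT. For 0 of 116, a limit of 3 cells gives 2.59%. The exact 95% intervals of flfl_CD4Cre (7.52 to 17.3%) and CD4Cre (7.15 to 9.54%) overlapped, and both lay above that of flfl, which ended at 3.13%. By single genes, the same rule was met in CD4Cre by 96 cells for Igha, 52 for Ighg2b, 27 for Ighg1, 10 for Ighg2c, 6 for Ighg3 and 1 for Ighe. In the T-cell gate Igha stood at 42.5 CPM in flfl_CD4Cre, 0 in flWT_CD4Cre, 55 in flfl, 97.8 in CD4Cre and 61.7 in WT. T cells do not make immunoglobulin, so single Igha UMIs in a B cell are not read as switching.

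Light chains were mostly kappa. Among cells with at least 10 light-chain constant UMIs, over 50% of these UMIs were lambda in 24 of 184 in flfl_CD4Cre, 12 of 116 in flWT_CD4Cre, 9 of 116 in flfl, 181 of 2094 in CD4Cre and 17 of 166 in WT. These are 13% in flfl_CD4Cre, 10.3% in flWT_CD4Cre, 7.76% in flfl, 8.64% in CD4Cre and 10.2% in WT, with overlapping intervals. The median cell nevertheless held 28.1% lambda UMIs in flfl_CD4Cre, 19.3% in flWT_CD4Cre, 26% in flfl, 25% in CD4Cre and 29.6% in WT, although a B cell normally uses 1 light-chain type. Igkc stood at 62.9 CPM in flfl_CD4Cre, 7.90 in flWT_CD4Cre, 341 in flfl, 222 in CD4Cre and 564 in WT in the T-cell gate, against 4074 CPM in flfl_CD4Cre, 5124 in flWT_CD4Cre, 7195 in flfl, 4850 in CD4Cre and 8998 in WT in B cells. Cells in which over 90% of these UMIs were lambda or kappa numbered at least 10 of each kind only in CD4Cre, so the planned test of such cells could not be fitted. Near-identical constant genes (Iglc2 and Iglc3, Ighg2b and Ighg2c) can share reads, and values of single members are uncertain.

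Lambda-majority cells were then compared with kappa-majority cells within library, with library as a block, a comparison chosen after the counts were seen. In edgeR's quasi-likelihood test over 4 libraries (flfl had 9 lambda cells and was left out) 3 of 7905 genes passed a Benjamini-Hochberg adjusted p of 0.05 (0.038%), 0 higher and 3 lower in lambda-majority cells, with 165 genes at an unadjusted p under 0.05. The 2 named were the neutrophil genes S100a8 (log2 change -2.41 ± 0.20 (SE), adjusted p = 9.33e-17) and S100a9 (-2.13 ± 0.21, adjusted p = 1.86e-13), both lower in 4 of 4 libraries. S100a8 stood, in lambda-majority against kappa-majority cells, at 6.30 against 41.5 CPM in flfl_CD4Cre, 10.3 against 118 in flWT_CD4Cre, 88.4 against 334 in CD4Cre and 281 against 1955 in WT. A single cell held 70.8% of all S100a8 UMIs of B cells in flfl_CD4Cre, 93.7% in flWT_CD4Cre and 64.7% in CD4Cre. For S100a9 these shares were 65%, 98.2% and 61.9%. No alternative of this fit left out these cells alone. No gene of the B-cell lists passed. Leaving out CD4Cre gave 17 genes, leaving out flfl_CD4Cre 15 and leaving out flWT_CD4Cre 5, and a fit with no library block gave 0 in edgeR, with 23 at an unadjusted p under 0.05. DESeq2 called S100a8 and not S100a9.

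B cells with little or no detected Ighd differed from B cells of the same tumours with more of it. Each cell was thinned to 1500 UMIs, and cells left with no Ighd UMI (called IgD-negative) were compared with cells with at least 2 (called IgD-positive), summed per library, with library as a block, in edgeR's quasi-likelihood test over 5 libraries. IgD-negative and IgD-positive cells numbered 66 and 81 in flfl_CD4Cre, 52 and 37 in flWT_CD4Cre, 73 and 14 in flfl, 670 and 918 in CD4Cre and 122 and 16 in WT. Levels in the IgD-positive classes of flfl and WT thus rest on few UMIs, for instance 6 and 4 UMIs of Pax5. Without thinning, cells with no Ighd UMI numbered 37 in flfl_CD4Cre, 24 in flWT_CD4Cre, 29 in flfl, 262 in CD4Cre and 61 in WT, so the IgD-negative class also holds cells in which Ighd was detected at full depth. Of 1393 genes, 72 passed an adjusted p of 0.05 (5.17%), 38 higher (2.73%) and 34 lower (2.44%) in IgD-negative cells. With DESeq2 size factors in the same test 91 passed, 32 higher and 59 lower. DESeq2 called 22. Without CD4Cre 18 passed and without flfl_CD4Cre 33, and edgeR without the library block gave 0, with 41 at an unadjusted p under 0.05.

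Of the 7 follicular genes tested 4 fell in IgD-negative cells and none rose, with a median log2 change of -0.58 over the 7 and 0.02 over all genes. Fcer2a stood, in IgD-negative against IgD-positive cells, at 222 against 519.6 CPM in flfl_CD4Cre, 205 against 542 in flWT_CD4Cre, 100.5 against 382 in flfl, 165 against 311 in CD4Cre and 43.7 against 125 in WT. It was lower in all 5 libraries (log2 change -1.08 ± 0.16 (SE), edgeR adjusted p = 4.41e-09). Fcmr, the IgM Fc receptor, was lower in 5 of 5 (log2 change -0.84 ± 0.15 (SE), edgeR adjusted p = 7.34e-07), and Klf2 in 4 of 5, with flWT_CD4Cre at 692 CPM in IgD-negative against 596 CPM in IgD-positive cells (log2 change -0.58 ± 0.14 (SE), edgeR adjusted p = 0.00183). Ccr7 (log2 change -0.51 ± 0.21 (SE), edgeR adjusted p = 0.137), Cr2 (log2 change -0.30 ± 0.15 (SE), edgeR adjusted p = 0.260) and Cxcr5 (log2 change -0.22 ± 0.22 (SE), edgeR adjusted p = 0.654) did not pass.

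Of 18 B-cell transcription factors tested, 4 fell and 1 rose, with a median log2 change of -0.20. Pax5 stood, in IgD-negative against IgD-positive cells, at 333 against 659.8 CPM in flfl_CD4Cre, 333 against 469 in flWT_CD4Cre, 146 against 286 in flfl, 371 against 498 in CD4Cre and 92.9 against 167 in WT, and was lower in all 5 libraries (log2 change -0.59 ± 0.15 (SE), edgeR adjusted p = 0.00538). Ets1, which restrains plasma-cell differentiation, and Mef2c, a factor of receptor signalling, were lower in 5 of 5 libraries as well (log2 change -0.52 ± 0.15 (SE), edgeR adjusted p = 0.0180 for Ets1 and log2 change -0.45 ± 0.13 (SE), edgeR adjusted p = 0.0185 for Mef2c). Ebf1 did not pass, with a log2 change of 0.01 ± 0.13. Zbtb20, which promotes long-lived antibody secretion, rose (log2 change 1.15 ± 0.15 (SE), edgeR adjusted p = 1.25e-12), in 4 of 5 libraries. In flfl it stood at 63.9 CPM in IgD-negative against 143 CPM in IgD-positive cells, from 7 and 3 UMIs.

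Satb1 and Zfp318 had the largest falls among the genes lower in all 5 libraries. Satb1 stood, in IgD-negative against IgD-positive cells, at 40.4 against 322 CPM in flfl_CD4Cre, 38.5 against 162 in flWT_CD4Cre, 82.2 against 143 in flfl, 139 against 296 in CD4Cre and 32.8 against 125 in WT (log2 change -1.30 ± 0.19 (SE), edgeR adjusted p = 9.17e-10). Zfp318, which allows the splicing that makes IgD, stood, in IgD-negative against IgD-positive cells, at 101 against 346 CPM in flfl_CD4Cre, 89.7 against 199 in flWT_CD4Cre, 18.3 against 143 in flfl, 174 against 351 in CD4Cre and 27.3 against 83.5 in WT (log2 change -1.16 ± 0.18 (SE), edgeR adjusted p = 2.23e-08). Sorl1, a sorting receptor, Cd84, an adhesion receptor of the SLAM family, Pxk, Sbk1, Hipk1, Tsc22d3, Stk17b and Hvcn1, a proton channel of B cells, fell by log2 values from 0.89 (Sorl1) to 0.49 (Hvcn1).

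S100a6, a calcium-binding protein, had the smallest p among genes higher in IgD-negative cells. It stood, in IgD-negative against IgD-positive cells, at 788 against 148 CPM in flfl_CD4Cre, 1705 against 307 in flWT_CD4Cre, 603 against 525 in flfl, 386 against 87.3 in CD4Cre and 443 against 125 in WT (log2 change 2.08 ± 0.16 (SE), edgeR adjusted p = 5.87e-34). In flfl the classes lay close together. Plac8 stood, in IgD-negative against IgD-positive cells, at 1051 against 404 CPM in flfl_CD4Cre, 1064 against 469 in flWT_CD4Cre, 2027 against 763 in flfl, 780.1 against 456 in CD4Cre and 2459 against 1044 in WT (log2 change 1.15 ± 0.13 (SE), edgeR adjusted p = 5.68e-16), and Ccnd2, a cyclin of B-cell proliferation, in IgD-negative against IgD-positive cells at 394 against 107 CPM in flfl_CD4Cre, 179 against 72.2 in flWT_CD4Cre, 192 against 0 in flfl, 226 against 111 in CD4Cre and 169 against 41.8 in WT (log2 change 1.21 ± 0.18 (SE), edgeR adjusted p = 6.52e-09). Plac8 and Ccnd2 were higher in each library. Pim1, a survival kinase, rose by 0.89 and Tcf4, an E protein, by 0.51 on the log2 scale. The histone genes Hist1h2ap and H2afz rose by 1.32 and 0.81, Marcks by 1.33, Lgals1 by 1.72, Ifitm3 by 1.37, Erh by 0.91 and Ybx1 by 0.51. Without thinning Ifitm3 stood at -0.53. S100a6, Lgals1, Ifitm3, Marcks, Hist1h2ap, H2afz and Apoe were higher in the other barcodes than in either class in all 5 libraries, for instance Lgals1 at 101 to 295 CPM in IgD-negative cells and 871 to 1965 CPM in other barcodes, Ifitm3 at 87.4 to 703 CPM in IgD-negative cells and 792 to 1845 CPM in other barcodes, and S100a6 at 386 to 1705 CPM in IgD-negative cells and 2384 to 5561 CPM in other barcodes. Igha rose (log2 change 2.05 ± 0.19 (SE), edgeR adjusted p = 2.56e-24) in 4 of 5 libraries, with flfl at 109.6 CPM in IgD-negative against 143 CPM in IgD-positive cells. The classes were set by Ighd, and cells counted as switched have few Ighd UMIs, so the rise of Igha follows in part from the classes. Iglc1, a lambda constant gene, rose in 5 of 5 (log2 change 0.86 ± 0.15 (SE), edgeR adjusted p = 6.45e-07). Of 7 glycolysis genes 2 rose, Gapdh (log2 change 0.88 ± 0.15 (SE), edgeR adjusted p = 5.13e-07) and Pkm (log2 change 0.64 ± 0.18 (SE), edgeR adjusted p = 0.0126), and none fell.

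**Figure D4:**
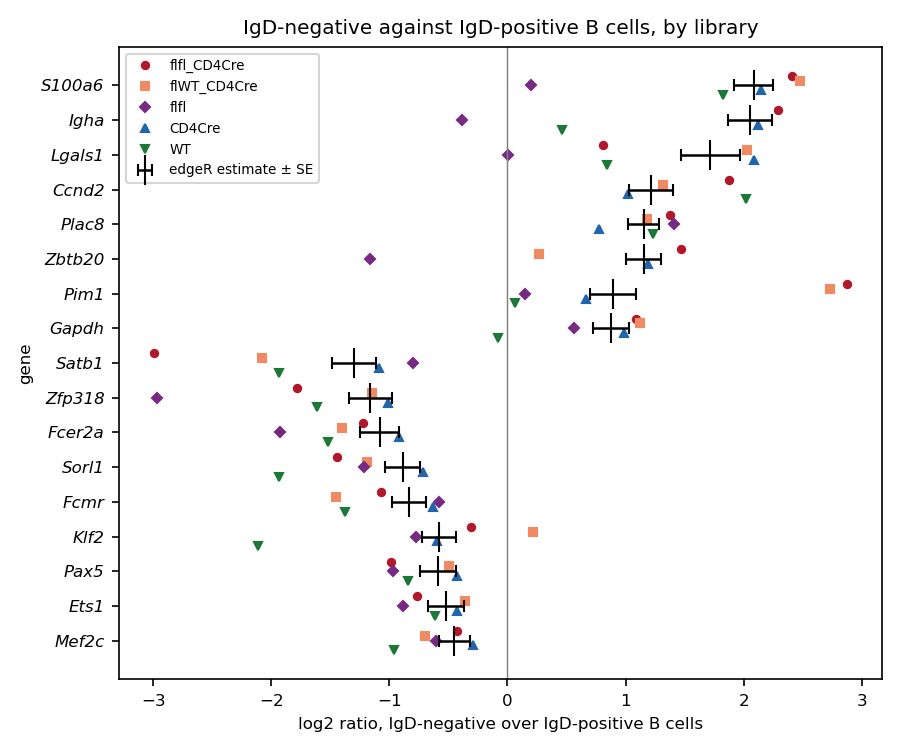
Log2 ratio of IgD-negative over IgD-positive B cells (horizontal axis) for 17 genes (vertical axis), with 1 symbol per library and the edgeR estimate ± SE in black. A library with 0 UMIs in either class has no symbol for that gene. S100a6, Ccnd2 and Plac8 lie to the right and Satb1, Zfp318 and Fcer2a to the left in every library with a symbol.

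None of 11 MHC class II genes, 12 receptor-signalling genes, 8 inhibitory receptor genes, 5 activation genes, 4 interferon-gamma genes or 5 type I interferon genes passed, where 5.17% of all genes did, so that lists of this size would hold few calls or none at that share. Cd74 had a log2 change of -0.18 ± 0.10 and Cd79b of -0.12 ± 0.12.

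Genes of myeloid cells were also higher in the IgD-negative class of most libraries. Cxcl2, a neutrophil chemokine, rose by 2.26 and the macrophage marker Apoe by 0.68 on the log2 scale. The 11 macrophage markers summed, in IgD-negative against IgD-positive cells, to 1030 against 749 CPM in flfl_CD4Cre, 1154 against 378 in flWT_CD4Cre, 5288 against 2333 in flfl, 1201 against 799 in CD4Cre and 4164 against 3458 in WT, higher in IgD-negative cells in 5 of 5 libraries. Neutrophil markers summed, in IgD-negative against IgD-positive cells, to 80.8 against 32.9 CPM in flfl_CD4Cre, 513 against 36 in flWT_CD4Cre, 4804 against 7667 in flfl, 550.2 against 57.4 in CD4Cre and 3219 against 2875 in WT, higher in 4 libraries and lower in flfl. Epithelial markers summed, in IgD-negative against IgD-positive cells, to 80.8 against 32.9 CPM in flfl_CD4Cre, 167 against 36 in flWT_CD4Cre, 54.8 against 47.6 in flfl, 23.9 against 10.2 in CD4Cre and 137 against 0 in WT, higher in 5 of 5. The part of these lists in the 72 calls was not tested. Before thinning, IgD-negative cells also had the higher median UMI count in each library, for instance 6244.5 UMIs in IgD-negative against 4472 UMIs in IgD-positive cells of CD4Cre. With cells that held a UMI of Csf1r, Adgre1, Mrc1, Cd68 or Fcgr3 left out, 31 of 931 genes passed, 14 higher and 17 lower, and 24 of them were among the 72. S100a6, Plac8, Fcer2a and Sorl1 passed in 17 of 18 alternatives each, all but the fit without the library block, and the lowest and highest adjusted p over the alternatives were 3.26e-45 and 0.853 for S100a6 and 6.16e-10 and 0.986 for Fcer2a. Fewer of the alternatives that tested them called other named genes: Pax5 and Ets1 passed in 9 of 18, Tcf4 in 8 of 18, Hipk1 in 7 of 15, Sbk1 in 5 of 13 and Hvcn1 in 5 of 18.

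Cd5, a B-1a marker, was found in thinned cells in 0% of B cells in flfl_CD4Cre, 0% in flWT_CD4Cre, 0.862% in flfl, 0.0944% in CD4Cre and 0.599% in WT and in 8.96 to 18.9% of T cells. Il10, the cytokine of regulatory B cells, was found in 1 thinned B cell, in flfl, and in none of 2118 cells of CD4Cre, which allows up to 0.142% of cells with a UMI at this depth and sets no limit on cells that express the gene. Cxcr3, a chemokine receptor of effector and memory lymphocytes, was found in 5.41% of B cells in flfl_CD4Cre, 0.847% in flWT_CD4Cre, 0% in flfl, 1.27% in CD4Cre and 2.40% in WT, and in 4.66 to 15.2% of T cells. Its share in flfl_CD4Cre B cells (interval 2.62 to 9.72%) lay above that in CD4Cre (interval 0.842 to 1.85%), and macrophages had 0.447% in CD4Cre and none in flfl_CD4Cre. Unthinned, the Cxcr3 shares were 12.8% in flfl_CD4Cre and 3.72% in CD4Cre. The summed level was 41.4 CPM in flfl_CD4Cre and 11.5 CPM in CD4Cre, below the 100 CPM at which genes were called.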

How the data were processed

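Raw UMI counts per gene and barcode, as deposited by the authors for 5 libraries, were the input. Cell Ranger 3.1.0 made those of flfl_CD4Cre, flWT_CD4Cre and CD4Cre, per the file headers, and for flfl and WT the version is not given in the sources used here. Reads were placed on mm10, per the submitters' processing notes. The 12 bulk libraries were not used. The members and gene lists were chosen with earlier results of these data known.

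Analysis was limited to 28208 genes listed by all 5 files. Levels are summed counts as CPM with exact Poisson 95% intervals, and shares have exact Clopper-Pearson 95% intervals. Both cover counting error only, and a count of 0 allows up to 3 counts. B-cell depth ran from 765829 summed UMIs in flfl to 12748860 in CD4Cre. No doublets were removed beyond the gate (an alternative removed the highest Scrublet scores, scanpy 1.11.5). Fits used edgeR 4.0.16 (R 4.3.3; TMM, default expression filter, robust quasi-likelihood, Benjamini-Hochberg), with DESeq2 1.42.0 as an alternative. Residual degrees of freedom among library and class sums were 4 for IgD and 3 for light chains. The spread behind the p-values was pooled over genes, with a median prior of infinite degrees of freedom for IgD and 95.7 for light chains. P-values thus rest little on most genes' own spread between the libraries of different genotype, 5 for IgD and 4 for light chains. Python 3.11.15, numpy 2.4.6 and scipy 1.17.1 were used.

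Named genes were listed genes, up to 12 called genes each way per pair of libraries by ratio, up to 15 each way per fit that moved alike in every library, and the 5 genes most restricted to B cells. For flfl_CD4Cre against CD4Cre they also had to lie outside the other 4 libraries. Gene models, ribosomal protein, mitochondrial and variable-segment genes were counted but not named by size. Fosb, Junb, Ier2, Ccl4 and Cxcr3 were singled out after their values were seen. Some genes are counted but not reported here by name.

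On simulated counts with changes of 1.5, 2 and 4 times the IgD fit recovered 65.7%, 85.1% and 72.7% with 3 false calls among 1393 genes. The light-chain fit recovered 7.46%, 43.3% and 90.9% with 9 false calls among 7905. The call between libraries found 0% of 1.5-fold and 100% of 3-fold and 4-fold changes, with 0 false calls among 1440, 1420 and 1200 genes. Those counts were drawn with Poisson error alone from 1 pooled profile per pair. With a minimum ratio of 2, the 0% and the lack of false calls follow largely from the rule. Spread between mice or between cells was not simulated, so these figures do not cover genes carried by 1 cell.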

Additional observations from a re-analysis of the deposited data

How the results depend on the processing

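The share of B cells was 5.84% in flfl_CD4Cre, 4.25% in flWT_CD4Cre and 49.9% in CD4Cre at 1000 genes per barcode. It was 37.9% in CD4Cre at 200 genes, 3.25% in flfl_CD4Cre and 36.8% in CD4Cre at 5% mitochondrial UMIs, and 40.5% in CD4Cre with at least 4 Cd79a UMIs. Without shared barcodes it was 7.57%, 5.04% and 54.0% in flfl_CD4Cre, flWT_CD4Cre and CD4Cre. CD4Cre stayed highest in each. Genes called between flfl_CD4Cre and CD4Cre numbered 13 as reported and 8 with TMM factors, 53 at 50 CPM, 562 with no minimum, 6 without shared barcodes and 6 with the richest cell left out. Among genes at least as high in B cells as in the other barcodes of the higher library, 1 was called, and the same filter is meant below. For flWT_CD4Cre against CD4Cre, 62 became 140 at 50 CPM, 863 with no minimum, 37 without shared barcodes, 39 with the richest cell left out, 798 by file name and 17 among genes at least as high in B cells. TMM factors gave 59 there, 41 higher and 18 lower. For flfl against WT, 107 became 236, 472, 643 by file name and 48 among genes at least as high in B cells. In B cells thinned to 1500 UMIs each, 11 genes were called between flfl_CD4Cre and CD4Cre, 4 of them among the 13. For flWT_CD4Cre against CD4Cre 66 were called in thinned cells, 24 of them among the 62. For flfl against WT 91 were called in thinned cells, 67 of them among the 107. The 72 genes of the IgD fit became 22 with DESeq2, 35 thinned to 1000 UMIs, 142 without thinning, 19 without cells with a cycling-gene UMI, 31 without cells with a macrophage-gene UMI, 23 among cells with an Ighm UMI, 0 without the library block and 18 to 86 when 1 library was left out. With no filter on low counts 94 were called, 88 higher and 6 lower. Of the 72 themselves, 18 were called with DESeq2, 18 thinned to 1000 UMIs, 28 without thinning and 24 with no filter. With DESeq2 size factors in edgeR 66 of them were called. The 3 genes of the light-chain fit became 9 with no filter, 0 without the library block and 3 to 17 when 1 library was left out. In these cases the cause was not tested, except that a lower minimum or no filter tests more genes.

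Reversed log2 values by file name were Fbln2 -4.57, Tm4sf1 -0.76, Gbp2 -0.35, Inhba -5.22, Ecm1 -0.96, Fabp5 -0.84, Ahnak -1.68, S100a9 1.75 and S100a8 2.53 against CD4Cre. For flfl against WT they were S100a4 -0.80, Ighg2b 1.91, Clu 0.78, Dph5 0.67, Stmn1 0.52 and Dtx1 0.70. Fabp5 stood at -0.40 with high doublet scores removed, and S100a8 at 0.20 in thinned cells and 0.016 without shared barcodes. In the IgD fit without thinning, Ifitm3 stood at -0.53, Tyrobp at -0.13, Cst3 at -0.70, Lgals3 at -0.10, Cstb at -0.30 and Psap at -0.069. Hmgb2 stood at -0.12 without cycling cells, and Cstb between -0.52 (without CD4Cre) and 1.07 (without flfl) when 1 library was left out. Between genotypes, no paired analysis was possible because each had 1 single-cell library, and the bulk libraries that share replicate numbers were not used. The fits within library had library as a block. In flfl, which had the fewest B-cell UMIs, a floor of 3 UMIs was 3.94 CPM.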

Other observations

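Of 1954 genes, 448 (22.9%) were lower in the B cells of both flfl and WT than in each of the other 3 libraries. They included 8 of 18 transcription factors. The 4 of 14 receptor-signalling genes, where 1 other was higher, and 3 of 9 migration receptors among them lay near the share over all genes. No gene of the immediate-early and stress list (11 genes), the BAFF receptor and survival list (8 genes) or the glycolysis list (9 genes) was in either direction of this split. Of the 83 genes higher in flfl and WT, 44 were so in the other barcodes too. Genotype and gene list cannot be told apart here.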
